A study of Rattus norvegicus with 11 samples.

Results

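The Nr4a genes encode a family of orphan nuclear receptors, and its 3 members were followed here through the rat medial prefrontal cortex (mPFC) by RNA sequencing. They were taken by their Ensembl identifiers, Nr4a1 (ENSRNOG00000007607), Nr4a2 (ENSRNOG00000005600) and Nr4a3 (ENSRNOG00000005964), from a table of 15607 genes, and all 3 were present. The animals were Sprague-Dawley rats, 2 to 3 months old by the labels, and the tissue was punched from the infralimbic, prelimbic and cingulate areas. There were 4 males, 3 females in proestrus, the stage with high ovarian hormone levels, and 4 females in diestrus, a stage with low levels, each library from a single animal that had received no treatment beyond handling and, in females, daily vaginal smears. Samples are named by their group and label number (diestrus 2 to 5, proestrus 1, 3 and 5, male 2 to 5). By the study's methods diestrus females were killed early on the first diestrus day and proestrus females in the early afternoon, so cycle stage cannot be told apart from a difference in hour. Males were killed on the same days as females, with no hour given. The sexes were housed in separate rooms and only females were smeared, so sex cannot be told apart from room, smears or hour.

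Nr4a receptors bind DNA as monomers or dimers, and Nr4a1 and Nr4a2 can pair with retinoid X receptors. No natural hormone is needed to switch them on: their activity is set mostly by how much of the protein is made. In neurons they are immediate early genes, transcribed within minutes to hours of synaptic activity through calcium and cyclic AMP signalling and the factor CREB, and all 3 have been linked to learning and memory. Nr4a2, also called Nurr1, is best known for the development and upkeep of midbrain dopamine neurons, and in the cortex it marks deep-layer and claustral neurons.

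Because CREB sites are a known feature of the Nr4a1 gene, the 300 bases around the annotated transcription start are shown for the members that the RefSeq promoter table of the GRCr8 assembly holds, Nr4a1 and Nr4a2. Each runs 5′ to 3′ along its gene, from 250 bases before the start to 50 bases after it, and capitals mark TGACG or its reverse complement, the core of the CREB site. The Nr4a1 window lies at chr7:134259888-134260187 on the plus strand and the Nr4a2 window at chr3:62104838-62105137 on the minus strand. These coordinates belong to GRCr8, whereas the reads were aligned to Rnor_5.0.

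Nr4a1: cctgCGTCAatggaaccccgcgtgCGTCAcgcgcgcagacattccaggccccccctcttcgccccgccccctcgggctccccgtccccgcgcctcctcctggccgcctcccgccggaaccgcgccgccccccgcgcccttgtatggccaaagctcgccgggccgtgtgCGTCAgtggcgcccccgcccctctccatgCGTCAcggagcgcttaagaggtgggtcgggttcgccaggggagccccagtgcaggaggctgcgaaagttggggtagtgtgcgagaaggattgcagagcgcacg
Nr4a2: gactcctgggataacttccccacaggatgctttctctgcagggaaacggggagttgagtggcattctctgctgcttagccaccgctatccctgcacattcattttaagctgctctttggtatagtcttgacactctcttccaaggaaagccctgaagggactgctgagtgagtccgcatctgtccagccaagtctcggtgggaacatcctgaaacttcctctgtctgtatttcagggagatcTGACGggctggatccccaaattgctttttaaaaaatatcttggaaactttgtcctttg

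The Nr4a1 window held 4 copies of the core, all on the opposite strand, beginning 246, 226, 82 and 53 bases before the start. At least 1 copy was found in 21.2% of the 33469 promoter windows of this length, and 4 or more in 0.236% of them. The Nr4a1 window was 72.3% G and C, against a median of 51.7% over all windows, and the core itself holds a CG pair, so the shares refer to windows of mostly different base composition. The Nr4a2 window was 48.7% G and C. The Nr4a2 window held 1 copy, 8 bases before its start. Of the other motifs searched on both strands, an Egr site (GCGNGGGCG) matched once in Nr4a1, as in 4.98% of all windows at least once, and not in Nr4a2. The full CREB site (TGACGTCA, which contains the core), the site that Nr4a proteins bind as monomers (AAAGGTCA), the TATA box (TATAAA), the CArG box of serum response factor and the palindromic estrogen response element matched in neither window. They occurred in 1.83%, 1.43%, 14.2%, 1.64% and 0.0269% of all windows, in that order. A match in these letters is not a measured binding site.

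Depth was 15.9 to 24.6 M reads on genes per library, and all values below are DESeq2-normalized read counts, that is, reads divided by a size factor of each library. Normalized counts do not account for transcript length, so levels are compared between groups for each gene and not between genes. Neuronal and glial markers were present in every library: Uchl1, a neuronal gene, had at least 22592 normalized counts, Gad1 of interneurons at least 3578 and Gja1 of astrocytes at least 4621. The other matched markers, Cux2 of upper-layer neurons, Sst of interneurons, Mog of oligodendrocytes, Pdgfra of their precursors, S100b of astrocytes, Aif1, Tmem119 and Ptprc of microglia and Myh11 of vessel muscle, were also read in every library. Ptprc was the most thinly read of them, with 20.7 to 55.6 normalized counts. The striatal gene Adora2a had 305 normalized counts in proestrus replicate 5 and 95.8 to 180 in the other 10 libraries. In bulk tissue, fewer cells of a type and less RNA per cell cannot be told apart. The libraries were not stranded, so reads of genes that overlap a member on either strand cannot be told apart from its own. Male replicate 3 differed most from the other males across the transcriptome, with a chi-square per degree of freedom of 14.6 to 28.3 against them and 7.60 to 11.3 among the rest. Diestrus fell into unlike pairs by the same measure: replicates 2 and 3 differed by 5.46 and replicates 4 and 5 by 5.04, whereas the values between these pairs were 14.2 to 26.3. By the study's methods rats were housed in pairs, and cage mates were killed together once both females had reached the stage. Which libraries came from cage mates is not known here, and all tests treat the animals as independent.

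Nr4a1 was read most deeply, with 2269 to 9862 reads per library, and gave the clearest pattern. In males, it had 8165, 7141, 7093 and 7148 normalized counts in replicates 2 to 5, a mean of 7387 ± 519 (SD, n = 4). In diestrus it had 6476, 5723, 4874 and 2112 normalized counts in replicates 2 to 5, a mean of 4796 ± 1905 (SD, n = 4). In proestrus it had 4992, 3918 and 2312 normalized counts in replicates 1, 3 and 5, a mean of 3741 ± 1349 (SD, n = 3). All 7 females lay below all 4 males, while the stages overlapped. The lowest males and the highest diestrus female, 7093 and 6476, were close to each other, and the female values reached down to 2112, so that males stood in a narrow band and females spread over 3.07-fold.

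Nr4a3 was intermediate in depth, with 596 to 1262 reads per library. In males, it had 1044, 755, 1076 and 1221 normalized counts in replicates 2 to 5, a mean of 1024 ± 195 (SD, n = 4). In diestrus it had 1030, 650, 730 and 883, a mean of 823 ± 168 (SD, n = 4). In proestrus it had 866, 620 and 700 in replicates 1, 3 and 5, a mean of 729 ± 126 (SD, n = 3). The order of the means was the same as for Nr4a1, males over diestrus over proestrus, yet every pair of groups overlapped. Of the males, replicate 3 alone lay below the highest female.

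Nr4a2 was the most shallowly read, with 116 to 360 reads per library and a counting error of 5.27% to 9.28%. In males, it had 298, 158, 286 and 257 normalized counts in replicates 2 to 5, a mean of 249.9 ± 63.6 (SD, n = 4). In diestrus it had 152, 126, 190 and 226, a mean of 173.5 ± 43.6 (SD, n = 4). In proestrus it had 292, 175 and 219 in replicates 1, 3 and 5, a mean of 228.5 ± 58.9 (SD, n = 3). In diestrus, replicates 2 and 3 were below replicates 4 and 5. Here proestrus took the middle place, between males and diestrus, and again every pair of groups overlapped.

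**Figure D1:**
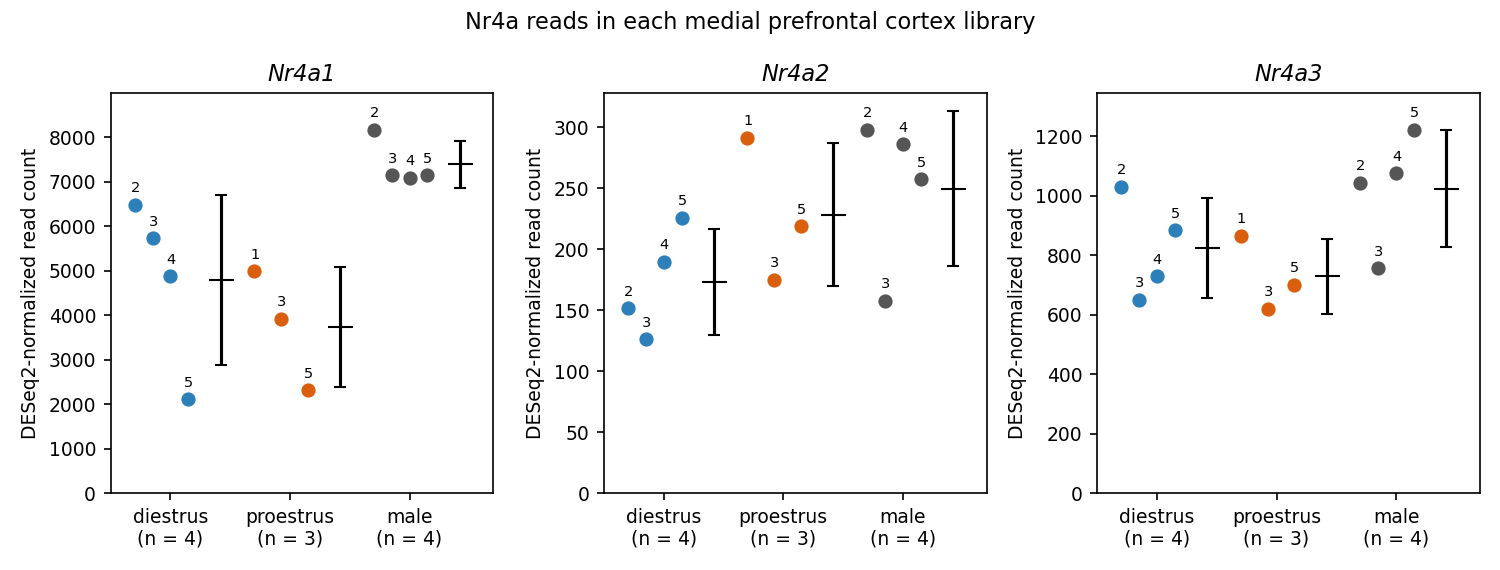
Normalized read counts (y axes, each from 0) of Nr4a1, Nr4a2 and Nr4a3 in each library, with points numbered by replicate and black bars for the mean ± SD of diestrus (n = 4), proestrus (n = 3) and males (n = 4). The 4 male Nr4a1 values sit between 7093 and 8165, above all 7 females, whereas Nr4a2 and Nr4a3 overlap between all groups.

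To ask whether the genes differed between groups, all 15607 genes were tested with limma and adjusted with the Benjamini-Hochberg method. No member passed a false discovery rate (FDR) of 0.05 in any of 4 comparisons. Across all genes, 2.53% passed between the stages, 0.0833% between proestrus and males, 0.128% between diestrus and males and 0.135% when all females were set against males. The edgeR quasi-likelihood test and DESeq2 called no member either. At an unadjusted limma p below 0.05, 0 of the 3 members differed between the stages, 2 between proestrus and males (Nr4a1 and Nr4a3), 2 between diestrus and males (Nr4a1 and Nr4a2) and 2 between all females and males (Nr4a1 and Nr4a3). The share of all genes below that value was 26.7%, 11.3%, 9.62% and 4.83% in these comparisons.

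Both stages of the cycle were compared first. Nr4a1 had a log2 fold change of −0.31 in proestrus vs diestrus (SE 0.32, 95% interval −0.99 to 0.37, limma adjusted p = 0.526). That of Nr4a3 was −0.17 (SE 0.18, 95% interval −0.55 to 0.21, limma adjusted p = 0.543). Nr4a2 went the opposite way, with a log2 fold change of 0.40 (SE 0.24, 95% interval −0.13 to 0.92, limma adjusted p = 0.289). None of the members separated the stages, whereas 26.6% of all genes did not overlap between them. The intervals of Nr4a1 and Nr4a2 reached differences of nearly 1 on the log2 scale. The Nr4a1 value rested on the lowest library of each stage: it was −0.67 without diestrus replicate 5 (limma adjusted p = 0.0514) and 0.000991 without proestrus replicate 5 (limma adjusted p = 0.999), the library with the high Adora2a value. The part of that marker in the Nr4a1 value was not tested. Single libraries also moved the other members: Nr4a3 ran from −0.30 without proestrus replicate 1 to −0.05 without diestrus replicate 2, and Nr4a2 from 0.21 without proestrus replicate 1 to 0.57 without proestrus replicate 3. Without both replicate-5 females, which were chosen after their values were seen, the Nr4a1 value was −0.35 (limma adjusted p = 0.128). Of the matched markers, Uchl1 (log2 fold change −0.24, limma adjusted p = 0.175), Myh11 (−0.32, adjusted p = 0.149) and Pdgfra (0.25, adjusted p = 0.146) did not overlap between the stages. The other matched markers did overlap. The part of these markers in the Nr4a values was not tested.

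Each stage was next compared with males. Nr4a1 in proestrus vs males had a log2 fold change of −1.05 (SE 0.32, 95% interval −1.73 to −0.37, limma adjusted p = 0.325), a 2.07-fold difference, and was at rank 251 of all genes by p. The value was −0.74 without proestrus replicate 5 and −1.29 without proestrus replicate 1. Nr4a1 was the single member whose groups did not overlap, as was the case for 13.3% of all genes. Nr4a3 had a log2 fold change of −0.48 (SE 0.18, 95% interval −0.86 to −0.10, limma adjusted p = 0.388), and Nr4a2 of −0.12 (SE 0.24, 95% interval −0.64 to 0.41, limma adjusted p = 0.836). In Nr4a3 the overlap came from male replicate 3, at 755, below proestrus replicate 1, at 866. Without proestrus replicate 3 the log2 fold change of Nr4a2 turned to 0.06. The vessel marker Myh11 was also lower in all proestrus females (756 to 926 normalized counts) than in all males (983 to 1476), with a log2 fold change of −0.62 (SE 0.13, limma adjusted p = 0.148, DESeq2 adjusted p = 0.0023) and rank 31 by p. Its part in the Nr4a1 difference was not tested.

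In diestrus vs males, the log2 fold change of Nr4a1 was −0.74 (SE 0.29, 95% interval −1.37 to −0.11, limma adjusted p = 0.467), or 1.67-fold. Its groups did not overlap, as for 3.84% of all genes. Without diestrus replicate 5 the value shrank to −0.38. Nr4a2 had a log2 fold change of −0.52 (SE 0.23, with a 95% interval that ended at −0.03, limma adjusted p = 0.498), with 3 of 4 males above every diestrus value. Its value was −0.72 without male replicate 3 (limma adjusted p = 0.0967) and −0.38 without diestrus replicate 3. For Nr4a3 the log2 fold change was −0.32 (SE 0.16, 95% interval −0.67 to 0.04, limma adjusted p = 0.557). It ran from −0.45 without male replicate 3 to −0.21 without diestrus replicate 3. The 4 male libraries enter the comparison of either stage with males, so the shared sign of the values is partly built in. Of the markers, Mog had a log2 fold change of 0.52 in diestrus vs males (limma adjusted p = 0.336) and Myh11 of −0.29 (adjusted p = 0.474), both with overlapping groups. Their part in the Nr4a values was not tested.

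Without regard to stage, Nr4a1 was 1.83-fold lower in females than in males, a log2 fold change of −0.87 (SE 0.27, 95% interval −1.45 to −0.29, limma adjusted p = 0.578). A full separation of 7 females from 4 males was found in 1.06% of all genes. Nr4a1 was at rank 166 by p, and it was lower in 7 of 7 females than the lowest male. The log2 fold change stayed between −0.99 and −0.72 when each library was left out in turn, with adjusted p from 0.327 to 1.00, and it was −0.52 without the replicate-5 females (limma adjusted p = 0.385). Nr4a3 had a log2 fold change of −0.39 (SE 0.15, 95% interval −0.71 to −0.06, limma adjusted p = 0.863) and Nr4a2 of −0.35 (SE 0.22, 95% interval −0.82 to 0.13, limma adjusted p = 1.00). Without male replicate 3 the Nr4a2 value was −0.55 (limma adjusted p = 0.919), and without male replicate 2 it was −0.25. The oligodendrocyte marker Mog, the 1 matched, leaned the other way, with 838 to 1381 normalized counts for diestrus, 792 to 916 for proestrus and 613 to 915 for males (log2 fold change 0.38 in females vs males, SE 0.15, limma adjusted p = 0.913), and its groups overlapped. Myh11 went the way of Nr4a1, with 948 to 1145 normalized counts for diestrus and a log2 fold change of −0.43 in females vs males (SE 0.13, limma adjusted p = 0.543), though diestrus overlapped with males. It was the 1 vessel marker matched of 3 listed. Over the 11 libraries the r of Nr4a1 with the 13 matched markers ran from −0.56 for Gad1 to 0.54 for Myh11. The part of these markers in the Nr4a differences was not tested. None of the 13 matched markers passed the FDR with limma in any comparison. The neuronal and interneuron markers overlapped between the sexes, with 23167 to 32298 normalized counts of Uchl1 in females and 22592 to 28142 in males.

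**Figure D2:**
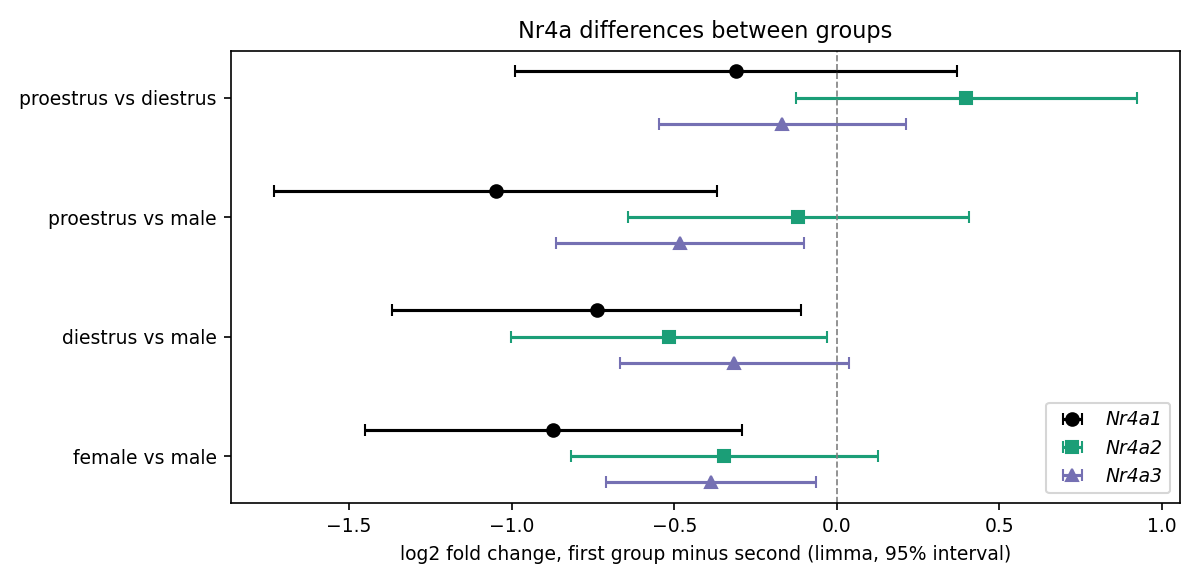
Limma log2 fold changes (x axis, first group minus second) of Nr4a1, Nr4a2 and Nr4a3 in the 4 comparisons, with bars for the 95% intervals before any adjustment over genes. The Nr4a1 intervals lie below 0 in the 3 comparisons with males and include 0 between the stages, and no member passed the FDR after adjustment.

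**Figure D3:**
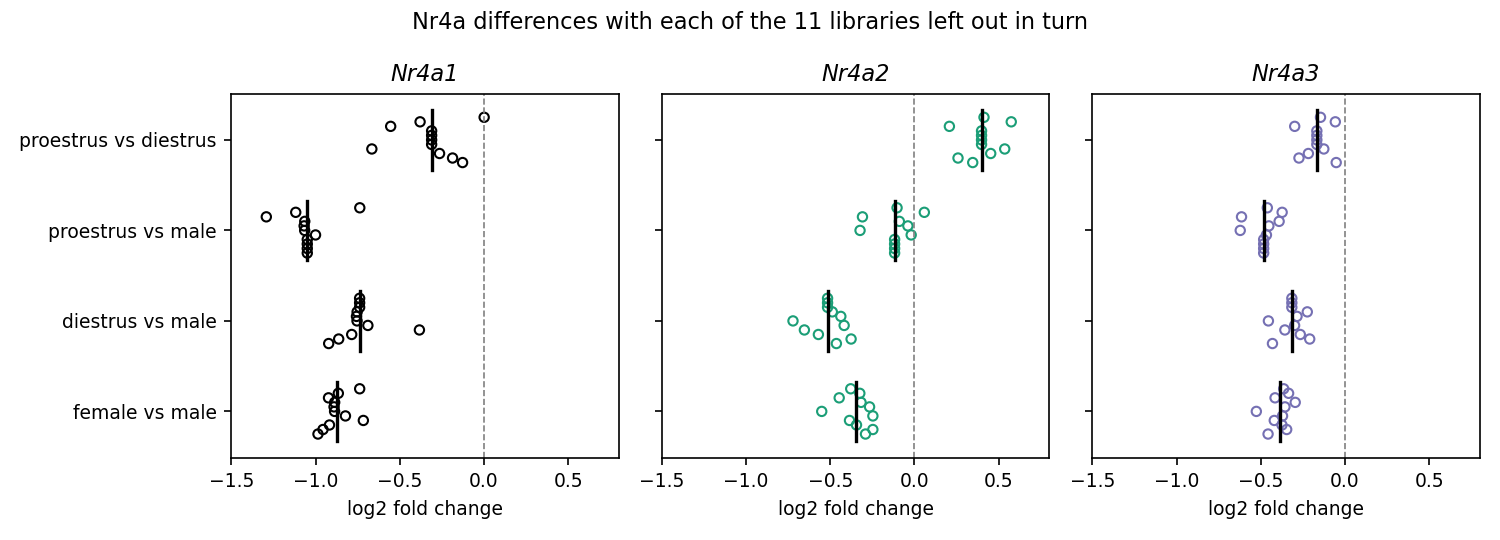
Log2 fold changes (x axis) of each member and comparison in the 11 fits that left out 1 library (open circles) and with all libraries (black lines). Nr4a1 stays below 0 in every fit against males, whereas its difference between the stages runs from −0.67 to 0.000991.

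The members differed in how much animals of the same group varied. The within-group SD of Nr4a1 was 0.53 on the log2 scale, against a median of 0.12 over the 1160 genes with a mean level from a factor of 2 below to a factor of 2 above its own, which placed it at the 99.8th percentile of them. Nr4a3 had an SD of 0.28 (95th percentile of 4207 genes, median 0.13) and Nr4a2 of 0.39 (93.8th percentile of 3689 genes, median 0.18). Counting error was at most 2.1% for Nr4a1, far under its coefficients of variation of 39.7% in diestrus and 36.1% in proestrus. In males that coefficient was 7.03%. The difference in spread between the sexes was not tested. Nr4a2 and Nr4a3 showed no such contrast, with coefficients of 25.4% and 19.1% in males, 25.1% and 20.5% in diestrus and 25.8% and 17.2% in proestrus.

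Whether the members varied together over animals was asked over the 11 libraries, with 3 relations in all. Nr4a2 and Nr4a3 had r = 0.60 (permutation p = 0.0543, adjusted p = 0.163) and rho = 0.59 (permutation p = 0.0616, adjusted p = 0.0925). Centred on the group means, their r was 0.69 (exact permutation within groups, p = 0.0495, adjusted p = 0.148), and without diestrus replicates 2 and 3, the farthest from the median of Nr4a2, it was 0.76, a value given with no test because its samples were left out by their levels. Nr4a1 and Nr4a3 had r = 0.46 (permutation p = 0.160, adjusted p = 0.239) and rho = 0.62 (permutation p = 0.0485, adjusted p = 0.0925). This relation did not hold within groups, where r was 0.04 (exact permutation p = 0.924), and it was 0.73 without the replicate-5 females, the farthest from the median of Nr4a1. Nr4a1 and Nr4a2 had r = 0.04 (permutation p = 0.911) and rho = 0.23 (permutation p = 0.501), an r of −0.27 within groups (exact permutation p = 0.455) and one of 0.30 without the replicate-5 females. In diestrus the latter pair ran against each other: replicate 5 had the lowest Nr4a1 and the highest Nr4a2 of its group.

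**Figure D4:**
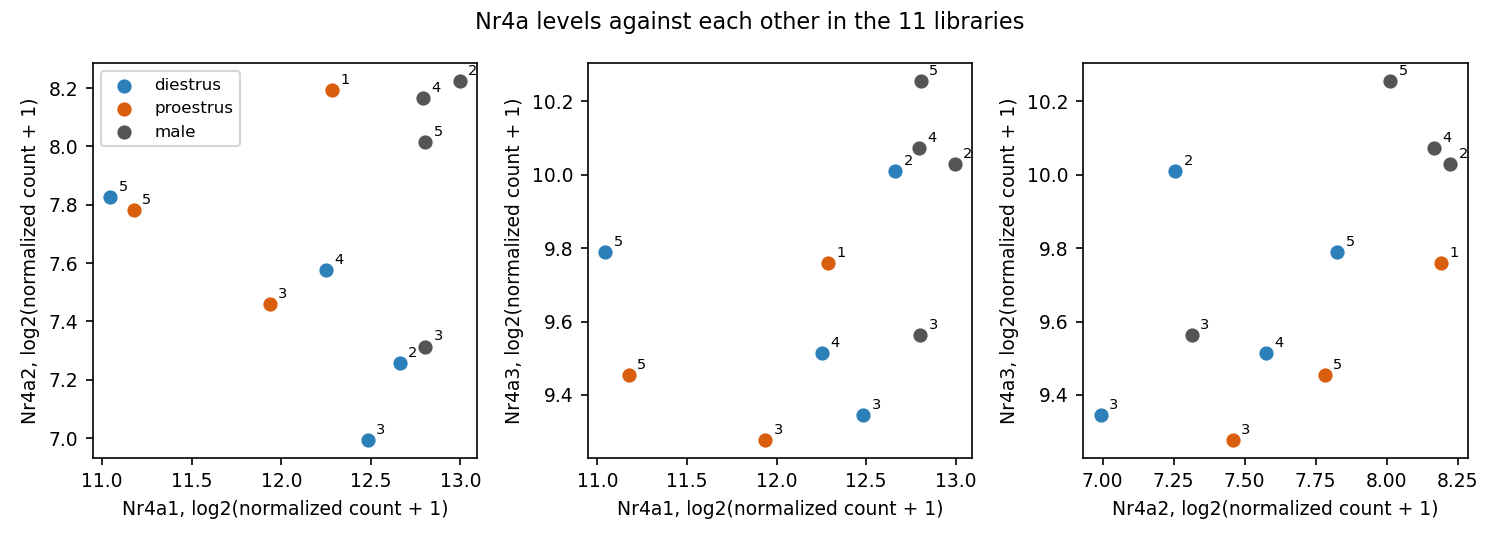
Levels of each pair of members, on log2(normalized count + 1) axes, in the 11 libraries, coloured by group and numbered by replicate. Diestrus 5 and proestrus 5 lie apart at low Nr4a1 with middling Nr4a2. Nr4a2 and Nr4a3 have r = 0.60 (permutation p = 0.0543, adjusted p = 0.163).

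The Nr4a genes were then set beside other genes induced by neuronal activity. Of 23 listed, 4 had an identifier that could be matched, Egr2, Sik1, Nptx2 and Ptgs2, and 0 of these 4 passed the FDR with limma or edgeR in any comparison. DESeq2 called Egr2 in females vs males (adjusted p = 0.0119) and none of the others. These tools were run on the listed genes after the limma results were seen. Egr2, a zinc finger factor, had 1365, 1246, 1615 and 1451 normalized counts in males 2 to 5, 1110, 676, 853 and 483 in diestrus 2 to 5 and 1011, 442 and 576 in proestrus 1, 3 and 5. All 7 females lay below all 4 males here too, and 1.06% of all genes did not overlap between the sexes. The log2 fold change of Egr2 was −1.02 in females vs males (SE 0.23, limma adjusted p = 0.177), −1.15 in proestrus vs males (adjusted p = 0.204) and −0.92 in diestrus vs males (adjusted p = 0.269). Sik1, a kinase that restrains CREB coactivators, had a mean of 315 ± 49.1 in males (SD, n = 4), 198 ± 89.9 for proestrus females (SD, n = 3) and 173 ± 49.3 for diestrus females (SD, n = 4), and proestrus replicate 1, at 302, lay among the males. Its log2 fold change was −0.83 in females vs males (SE 0.21, limma adjusted p = 0.322).

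Nptx2, a synaptic pentraxin, had 2248 to 2747 normalized counts in males, 1567 to 2550 in diestrus and 1842 to 2121 in proestrus, with a log2 fold change of −0.27 in females vs males (SE 0.12, limma adjusted p = 0.978). Ptgs2, which encodes cyclooxygenase 2, differed in shape: its mean was 99.8 ± 37.1 for diestrus (SD, n = 4), 175 ± 8.93 for proestrus (SD, n = 3) and 165 ± 76.3 for males (SD, n = 4), with all proestrus values above all diestrus values (log2 fold change 0.88, SE 0.34, limma adjusted p = 0.139). The 4 genes had a median log2 fold change of 0.04 between the stages, −0.53 for proestrus against males, −0.78 for diestrus against males and −0.56 for all females against males, beside medians of −0.01, 0.01, 0.01 and 0.01 over all genes.

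Over the 11 libraries, and as a description of points that share size factors and groups, the log2 level of Nr4a1 correlated with Nptx2 at r = 0.86, Egr2 at 0.84 and Sik1 at 0.76, and with Ptgs2 at −0.19. For Nr4a3, r was 0.77 with Sik1, 0.75 with Egr2, 0.33 with Nptx2 and 0.30 with Ptgs2. For Nr4a2, r was 0.80 with Ptgs2, 0.58 with Sik1, 0.39 with Egr2 and −0.12 with Nptx2. The r of Nr4a2 with the 13 cell type markers ran from −0.78 for Uchl1 to 0.80 for Pdgfra and was mixed within types: of the astrocyte markers, Gja1 had 0.72 and S100b −0.69, and of the interneuron markers, Gad1 had 0.57 and Sst −0.76. Male replicate 3 and diestrus replicates 2 and 3 were low in both Nr4a2 and Ptgs2, with 158, 152 and 126 normalized counts of Nr4a2 and 84.0, 70.5 and 66.5 of Ptgs2. Their deviations were also alike across genes: those of male replicate 3 correlated with diestrus replicates 2 and 3 at 0.50 and 0.59. Uchl1 and Sst were highest in the same libraries, with 28142 to 32298 and 4782 to 5895 normalized counts. The part of this wider likeness in the r of Nr4a2 with Ptgs2 was not tested.

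**Figure D5:**
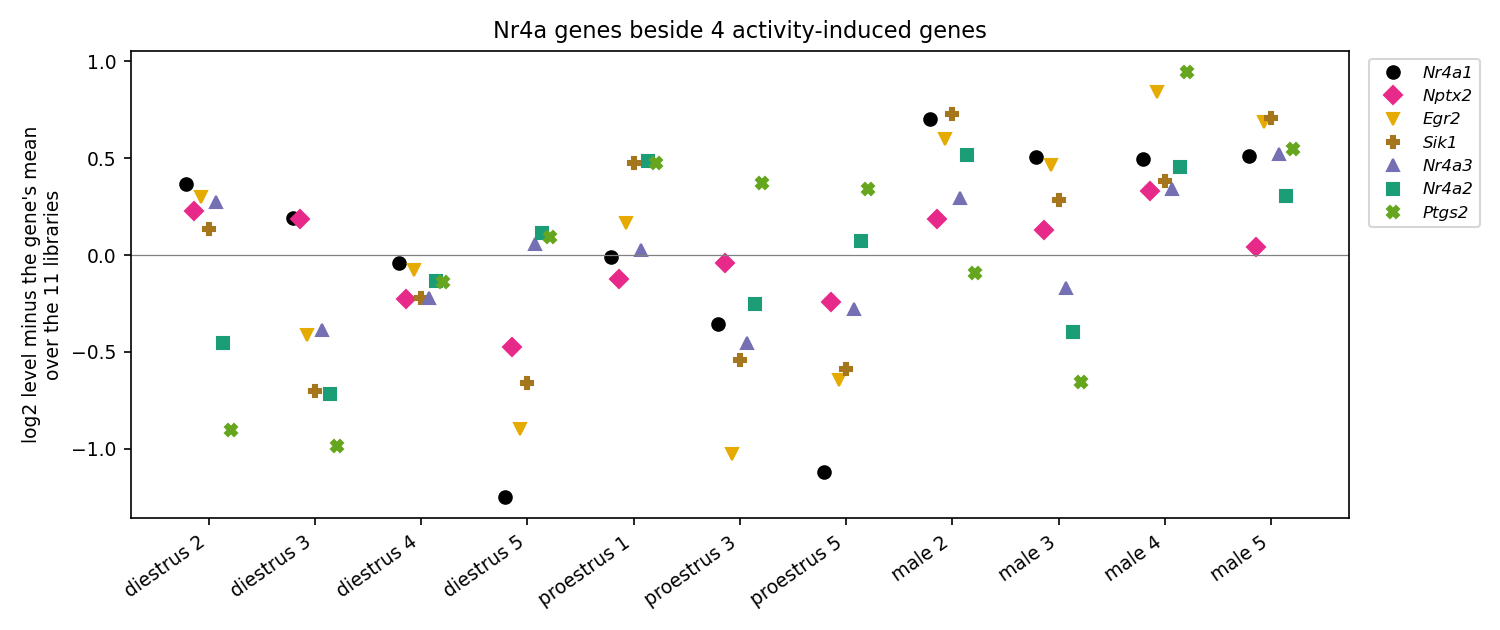
Log2 level of each member and of 4 activity-induced genes in each library (x axis), minus the gene's mean over the 11 libraries (y axis). Nr4a1, Egr2 and Sik1 sit above 0 in all males and mostly below it in diestrus 5, proestrus 3 and proestrus 5, while Nr4a2 and Ptgs2 are low together in diestrus 2, diestrus 3 and male 3. Male 3 also resembled diestrus 2 and diestrus 3 in its deviations across genes.

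Signalling upstream of the family and its partners were described by the remaining lists. Of 16 kinases and factors upstream, 4 were matched (Atf2, Ep300, Mapk7 and Mapk14), and 0 passed the FDR with limma in any comparison. Their median log2 fold change was 0.31 between the stages, 0.19 for proestrus against males, −0.16 for diestrus against males and 0.0034 for all females against males. The nearest to the threshold, named after its values were seen, was Atf2, a CREB-like factor. It had 389 ± 56.1 normalized counts for proestrus (SD, n = 3), 151 ± 43.4 for diestrus (SD, n = 4) and 237 ± 130 for males (SD, n = 4). Males ran from 112 to 388, and the lowest libraries were diestrus 2 (110), male 3 (112) and diestrus 3 (119). Between the stages the log2 fold change of Atf2 was 1.4 (SE 0.35, limma adjusted p = 0.0532). That difference passed with DESeq2 (adjusted p = 0.03) and, at the threshold, with edgeR (adjusted p = 0.05), and 2.53% of all genes passed with limma. Of 9 partners and coregulators, 3 were matched, the retinoid X receptor Rxrb and the corepressors Ncor1 and Nrip1, and 0 passed with limma in any comparison, with log2 fold changes between −0.15 and 0.17. None of the 6 listed dopamine target genes of Nr4a2 was matched.

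The genes whose level followed a member most closely over the 11 libraries were sought among the 11730 genes whose mean reached 50 normalized counts. For Nr4a1 they were ENSRNOG00000014061, ENSRNOG00000033433 and ENSRNOG00000043465, with r of 0.97, 0.96 and 0.96. ENSRNOG00000014061 ran from 266 to 302 normalized counts in males, 138 to 253 in diestrus and 141 to 241 in proestrus. For Nr4a2 they were ENSRNOG00000007152, ENSRNOG00000027422 and ENSRNOG00000020254, with r of 0.94, 0.93 and 0.92. For Nr4a3 they were ENSRNOG00000023509, ENSRNOG00000011287 and ENSRNOG00000014363, with r of 0.89, 0.89 and 0.88. The 3 sets had no gene in common. These genes were picked for their likeness, so the values describe these libraries only.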

How the data were processed

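RNA-seq was measured in 11 mPFC libraries (diestrus 4, proestrus 3, male 4). Per the labels and methods, the authors trimmed reads with Trimmomatic 0.32, aligned them to Rnor_5.0 with TopHat2 2.0.11 and Bowtie2 2.1.0, counted them per Ensembl gene with HTSeq 0.6.1p1, removed lowly read genes by spike-ins and left out 1 proestrus library, not analysed here. The deposited signal is a DESeq2-normalized count, from which whole reads were recovered for 100% of values (tolerance 0.01). A second table, normalized with edgeR, was not used.

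The main test was limma 3.58.1 (R 4.3.3), trend prior, on log2(value + 1), over 15607 genes, which understates changes of low genes. Proestrus vs diestrus and each stage vs males came from 1 fit, females vs males from a fit on sex. Alternatives on recovered reads were edgeR 4.0.16 and DESeq2 1.42.0. Correlation p-values used 100000 permutations. Libraries of a group were not copies of each other (chi-square per degree of freedom 5.04 to 28.3). Intervals are for a difference of group means and rest on the spread between these animals. That spread was estimated as 1 value per gene for all groups. For Nr4a1 the coefficient of variation was 7.03% in males, 39.7% in diestrus and 36.1% in proestrus, so 1 shared value describes no group well.

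The tables hold Ensembl identifiers, and the RefSeq table paired 0 of them with symbols. Symbols came from the study's gene annotation, of which the first part alone was used, so 11 of 54 pathway genes and 13 of 31 markers were matched. Some listed genes are not reported here. Genes were named by rule: the members always, listed genes where past the FDR, and the 3 genes most like each member. Others are named after their values were seen. The members and lists were chosen with earlier results of these data known.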

Additional observations from a re-analysis of the deposited data

Results flagged for a closer look

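Of 21 sets of 4 or 7 values examined (the 3 members and 4 activity-induced genes in diestrus, males and females), 1 held a sample far from the others. Nr4a1 in male replicate 2 had 8165 normalized counts, and the nearest male had 7148, a gap of 0.948 of the whole male range. Chance alone gives about 1 such set in 20. The male range was narrow, and without male replicate 2 the remaining males still lay above all females.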

How the results depend on the processing

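No member passed the FDR in any of 75 alternative fits, 217 results in all (limma with a pseudocount of 5, a mean of at least 10, TMM scaling or the compared groups alone, edgeR, DESeq2, the replicate block, fits without single libraries and, added later, without the replicate-5 females), with adjusted p from 0.0514 to 1.00. Nr4a1 in proestrus vs diestrus ran from −0.67 to 0.000991 (log2) without single libraries, reversed without proestrus replicate 5, and Nr4a2 in proestrus vs males from −0.32 to 0.058, reversed without proestrus replicate 3. Centred on group means, the correlation of Nr4a1 and Nr4a2 was −0.27, and without the 2 farthest samples those of Nr4a1 and Nr4a3 and of Nr4a2 and Nr4a3 were 0.73 and 0.76, which are values with no test, as those samples were left out by their own levels. The cause was not tested. The number of genes past the FDR in proestrus vs diestrus, proestrus vs males, diestrus vs males and females vs males was 395, 13, 20 and 21 with limma, 1076, 118, 117 and 77 with DESeq2, and 817 and 23 in the first 2 with the compared groups alone. Leaving out single libraries gave 0 to 1774, 2 to 26, 1 to 88 and 1 to 24 genes. Label numbers were not taken to pair the samples, since not every pair exceeded 0.1: deviations of 8 same-numbered pairs correlated at 0.01 to 0.59 (median 0.15, 6 over 0.1), and those of 32 other pairs at −0.67 to 0.58 (median −0.04, 5 over 0.1), a hint of shared variation for some numbers. With the replicate block, the number was 3 for proestrus against males and 47 for diestrus against males, and no member passed. The groups of 3 to 4 animals limit what these data can show, and Nr4a2, with 116 reads at the least, also carries counting error of up to 9.28%.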
